A study of Mus musculus with 6 samples.

Results

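The genes described here are a group of mitotic spindle and kinetochore genes in mouse bone marrow cells that carried MN1 or MN1VP16, set against Gr1-positive and CD11b-positive marrow cells. They were taken by gene symbol from a list of 46 genes, and where several probe sets named a gene, the one with the highest mean level across the 6 arrays was used. Of the 46, 45 were measured, among 18193 genes in all, and Ccnb1 was not analysed here. The MN1VP16 group (n = 2 arrays) and the MN1 group (n = 2) were GFP-positive marrow cells with the retroviral vector pSF91-MN1VP16-IRES-GFP or pSF91-MN1-IRES-GFP. MN1 is a cofactor of transcription that is known to cause myeloid leukaemia in mice when overexpressed, and VP16 is known as a viral protein that activates transcription. The cells came from C57BL/6J donors that had received 150 mg/kg 5-fluorouracil for 4 days, were stimulated with cytokines for 48 hours and were transduced before transplantation into lethally irradiated syngeneic mice. GFP-positive cells were sorted 4 weeks after transplantation. The Gr1Mac group (n = 2) was marrow sorted for Gr1 and CD11b, which are found on granulocytes and monocytes. The labels do not state whether the Gr1Mac cells were from transplanted animals. They also name no mouse for an array, so the spread behind the p-values may be only technical within MN1 and within MN1VP16. The 2 Gr1Mac arrays differed in sex-linked genes, given below, so their spread also holds a difference between animals. The vectors mark a mixed population of transduced cells, not 1 cell type.

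In mitosis, cyclin-dependent kinase 1 and its cyclins bring about the condensation of chromosomes and the building of a bipolar spindle. Kinetochores, protein assemblies on the centromeres, attach chromosomes to spindle microtubules, and the spindle checkpoint holds back the anaphase-promoting complex until the attachments are made. Kinesin motors, the chromosomal passenger complex and the midzone then separate the chromosomes and divide the cell. In marrow these genes are known as a sign of dividing precursors, whereas mature granulocytes no longer divide.

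All values were the authors' log2 expression values, in which 1 unit is a 2-fold step, and every difference below is on that log2 scale. A gene was called where limma's p, adjusted over all genes by the Benjamini-Hochberg method, was under 0.05. Itgam, which encodes CD11b, read 9.44 and 8.88 in MN1VP16, 7.67 and 6.95 in MN1, and 10.95 and 10.92 in Gr1Mac, so the gate gene was highest in the sorted group. Markers of other cells differed with the groups: in MN1 relative to Gr1Mac, 8 of 8 stem and progenitor markers and 8 of 10 erythroid markers rose, and 7 of 7 monocyte markers, 6 of 6 mature neutrophil markers and 3 of 10 neutrophil precursor markers fell (limma). Of all genes, 17.3% rose and 12% fell in this comparison. The 8 stem and progenitor markers averaged 9.98 and 9.41 in MN1VP16, 10.98 and 11.13 in MN1, and 6.41 and 6.43 in Gr1Mac. The 10 erythroid markers averaged 9.20 and 8.33 in MN1VP16, 10.75 and 11.30 in MN1, and 7.19 and 6.98 in Gr1Mac. The 10 neutrophil precursor markers averaged 12.99 and 13.55 in MN1VP16, 12.55 and 11.28 in MN1, and 13.09 and 12.73 in Gr1Mac. The 6 mature neutrophil markers averaged 11.19 and 11.38 in MN1VP16, 10.81 and 9.77 in MN1, and 12.81 and 13.20 in Gr1Mac. In bulk RNA, fewer cells of a type and less RNA per cell cannot be told apart. Xist, made in female cells, read 5.53 and 5.84 in MN1VP16, 12.36 and 12.59 in MN1, and 10.44 and 5.83 in Gr1Mac. The Y-linked gene Kdm5d read high on the other arrays, at 7.24 and 7.55 in MN1VP16 and at 7.37 on Gr1Mac array 2. MN1VP16 and MN1 therefore differed by this sex pattern as well as by vector, and between these groups vector and sex pattern cannot be told apart. The part of the markers and of the sex pattern in the results below was not tested beyond the values given.

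Most of the 45 mitosis genes did not pass the test in any comparison. In MN1 relative to Gr1Mac, 4 rose (Mad2l1, Cenpk, Cenph and Bub1b), 1 fell (Kif23) and 40 were not called. This was 8.89% called higher and 2.22% called lower, against a background of 17.3% and 12% of all genes. At an unadjusted p under 0.05, 11 members passed, or 24.4%, against 39.8% of all genes. The median difference of the members was 0.16, against -0.06 over all genes, and 36 of the 45 were higher by mean, or 80% against 44.5% of all genes. Both MN1 arrays lay above both Gr1Mac arrays for 20 members and below them for 3, or 44.4% and 6.67%, against 30.9% and 35.8% of all genes.

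In MN1VP16 relative to Gr1Mac, limma called 0 members higher and 0 lower, where 3.66% of all genes were called higher and 2.11% lower. At an unadjusted p under 0.05, 1 member passed, Cenpk, against 23.7% of all genes. The members' differences ran between -0.45 (Kif23) and 0.80 (Cenpk), with a median of 0.03. For 33 of the 45, or 73.3%, the 95% interval lay within a 2-fold change in either direction, as it did for 65.6% of all genes. For the other 12 a 2-fold difference was not excluded by the interval.

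In MN1VP16 relative to MN1, 0 members rose and 1 fell, Mad2l1, where 1.15% of all genes rose and 2.7% fell. At an unadjusted p under 0.05, 2 members passed, or 4.44%, against 22.5% of all genes. The median difference was -0.23, against 0.03 over all genes. By mean, 9 of the 45 were higher in MN1VP16, or 20%, against 53.4% of all genes. Both MN1VP16 arrays lay below both MN1 arrays for 13 members and above them for 2, or 28.9% and 4.44%, against 29.2% and 30.5% of all genes. The sign of the median rested on MN1VP16 array 1: without it the median was 0.09. With the sex pattern as a block the median was 0.20, but in that fit the sex term rests on the 2 Gr1Mac arrays alone. Both MN1 arrays shared 1 pattern and both MN1VP16 arrays the other, so the block cannot separate sex pattern from vector.

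**Figure D1:**
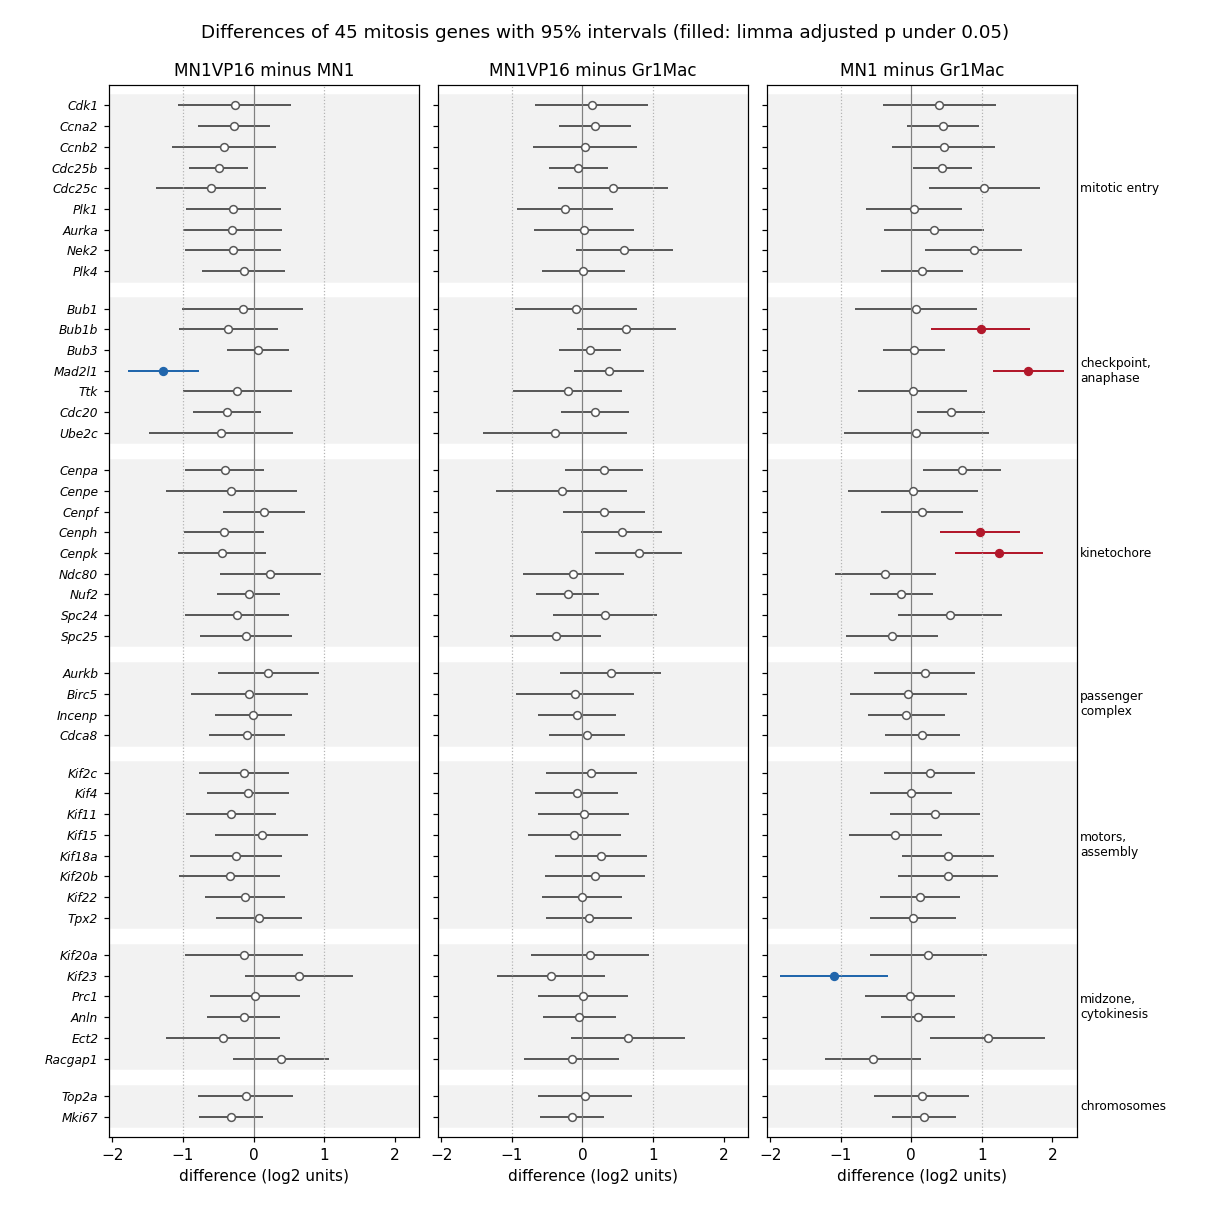
Differences of the 45 mitosis genes (rows, by role) in log2 units for MN1VP16 minus MN1 (left), MN1VP16 minus Gr1Mac (middle) and MN1 minus Gr1Mac (right). Circles are differences of group means (2 arrays each), lines are limma's 95% intervals and dotted lines mark a 2-fold difference. Filled symbols passed limma's adjusted p: Mad2l1 in the left panel, and Bub1b, Mad2l1, Cenph, Cenpk and Kif23 in the right panel.

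Within MN1VP16 and within Gr1Mac the members moved together from array to array. Over the 45 genes the mean level was 9.31 and 9.77 in MN1VP16, 9.76 and 9.70 in MN1, and 9.64 and 9.27 in Gr1Mac. MN1VP16 overlapped both other groups, and both MN1 arrays lay above both Gr1Mac arrays. MN1VP16 array 2 was higher than array 1 for 42 of the 45 genes, with a median difference of array 1 minus array 2 of -0.46, where the median over all genes was 0.01. Gr1Mac array 1 was higher than array 2 for 39 of the 45, with a median of 0.45, where all genes had 0.03. The MN1 arrays lay close together, with array 1 higher for 26 and array 2 for 19. The MN1 median was 0.04. For the S phase and replication genes the medians of array 1 minus array 2 were -0.48 in MN1VP16, -0.06 in MN1 and 0.33 in Gr1Mac. The neutrophil precursor markers were higher on MN1VP16 array 2 and on Gr1Mac array 1, but they differed most between the MN1 arrays (12.55 and 11.28), where the members stayed level. The monocyte markers averaged 12.31 and 11.33 in MN1VP16, 8.70 and 8.61 in MN1, and 12.23 and 11.29 in Gr1Mac. They ran the other way from the members in MN1VP16 and the same way in Gr1Mac. The B cell markers averaged 6.22 and 6.55 in MN1VP16, 5.34 and 5.36 in MN1, and 5.41 and 5.07 in Gr1Mac. These ran the same way as the members in MN1VP16 and Gr1Mac. The stem and progenitor and the erythroid markers ran the other way in MN1VP16. The part of cell mixture in these shifts was not tested.

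**Figure D2:**
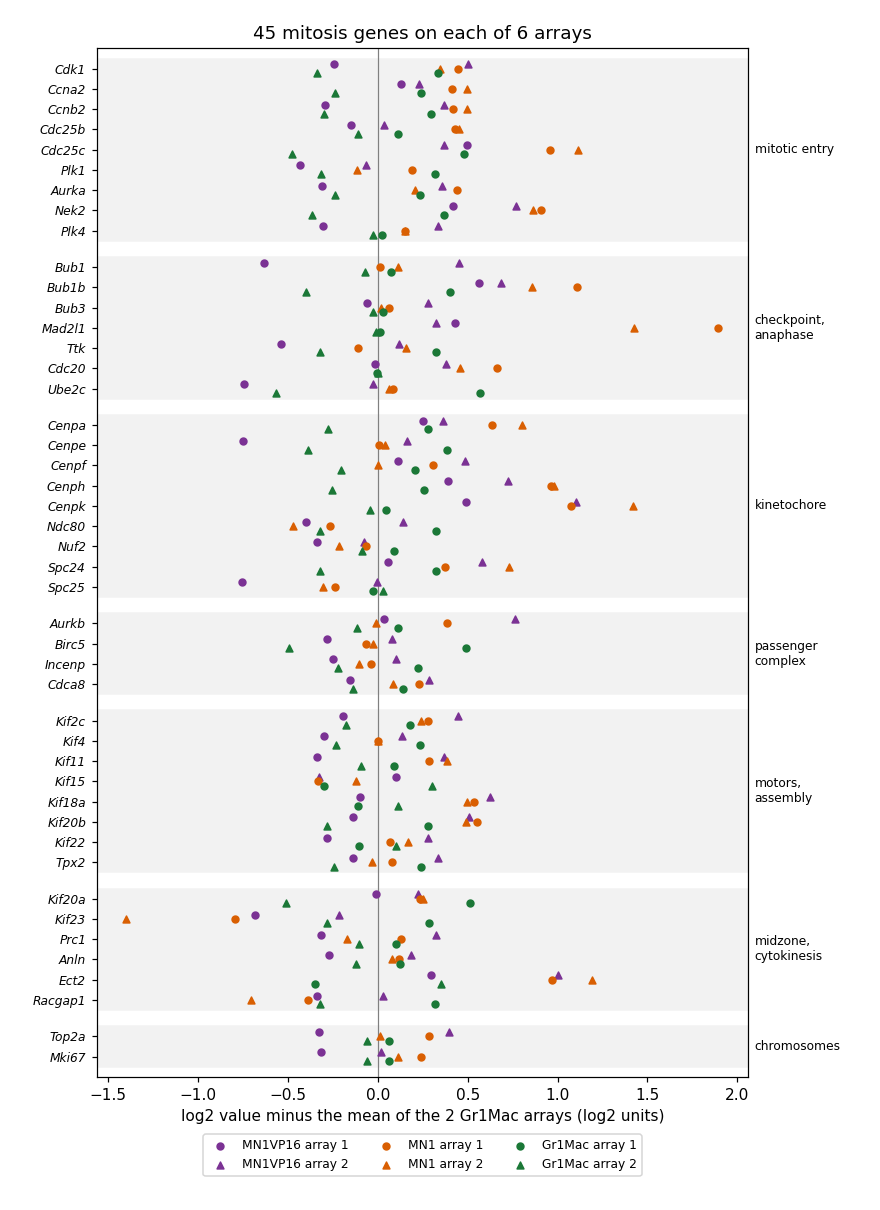
Log2 value of each of the 45 mitosis genes (rows, by role) on each of the 6 arrays, minus the mean of the 2 Gr1Mac arrays (log2 units). Purple symbols are MN1VP16, orange MN1 and green Gr1Mac, with circles for array 1 and triangles for array 2. MN1VP16 array 2 lies right of array 1 for 42 genes, and Mad2l1 in MN1 lies farthest to the right.

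The promoters of the group share sequence elements that the choice of members did not use. RefSeq windows of 250 bases before to 50 bases after the transcription start (build GRCm38.p6) were matched by symbol for 38 of the 45 genes, in 43 windows. CCAAT, the box bound by the factor NF-Y, and TTTGAA or TTCGAA, the forms of the element called CHR that is known from cell cycle promoters, were searched on both strands. CCAAT was present in 76.7% of the members' windows, against 37.4% of the 32851 windows in the table. TTTGAA was present in 69.8% against 17.9%, and TTCGAA in 9.3% against 1.56%. CCAAT together with either of the other motifs was present in 62.8% against 7.52%. In the windows of the S phase and replication genes, CCAAT was present in 55.6%, and TTTGAA or TTCGAA in 20.6%, against 74.4% for the members. The 3 motifs do not contain one another, and a match is a description and not a binding site. The windows of Bub1b, Kif23, Cdk1 and Mki67 are shown because each holds both kinds of motif and their values are given below, and that of Mad2l1, chosen after its values were seen, because it holds none. Capitals mark the motifs, with ATTGG as CCAAT read on the other strand. Bub1b lies at chr2:118597961-118598260 on the plus strand, Kif23 at chr9:61946750-61947049 on the minus strand, Cdk1 at chr10:69352863-69353162 on the minus strand, Mki67 at chr7:135716330-135716629 on the minus strand, and Mad2l1 at chr6:66534971-66535270 on the plus strand.
Bub1b: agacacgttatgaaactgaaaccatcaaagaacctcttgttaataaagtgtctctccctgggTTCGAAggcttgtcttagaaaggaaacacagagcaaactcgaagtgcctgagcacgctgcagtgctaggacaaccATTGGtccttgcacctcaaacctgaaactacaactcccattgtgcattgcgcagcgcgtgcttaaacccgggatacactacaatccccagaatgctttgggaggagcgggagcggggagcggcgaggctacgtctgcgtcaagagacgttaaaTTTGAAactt
Kif23: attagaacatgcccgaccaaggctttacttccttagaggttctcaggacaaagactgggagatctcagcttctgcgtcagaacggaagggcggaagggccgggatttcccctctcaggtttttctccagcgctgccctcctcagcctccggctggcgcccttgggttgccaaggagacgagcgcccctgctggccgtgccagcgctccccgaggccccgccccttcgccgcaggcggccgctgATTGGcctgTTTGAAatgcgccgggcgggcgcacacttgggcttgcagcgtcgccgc
Cdk1: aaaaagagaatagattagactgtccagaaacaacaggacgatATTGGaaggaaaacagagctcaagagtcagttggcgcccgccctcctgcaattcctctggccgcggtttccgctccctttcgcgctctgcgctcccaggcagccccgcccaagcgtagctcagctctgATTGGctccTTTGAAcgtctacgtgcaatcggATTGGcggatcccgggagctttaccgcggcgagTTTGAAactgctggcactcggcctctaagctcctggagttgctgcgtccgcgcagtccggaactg
Mki67: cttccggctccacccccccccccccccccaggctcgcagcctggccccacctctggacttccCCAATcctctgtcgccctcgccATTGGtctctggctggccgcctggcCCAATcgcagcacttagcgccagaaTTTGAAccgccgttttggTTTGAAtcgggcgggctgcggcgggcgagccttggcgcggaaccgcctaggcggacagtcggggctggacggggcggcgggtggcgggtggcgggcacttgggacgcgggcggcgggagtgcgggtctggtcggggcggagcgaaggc
Mad2l1: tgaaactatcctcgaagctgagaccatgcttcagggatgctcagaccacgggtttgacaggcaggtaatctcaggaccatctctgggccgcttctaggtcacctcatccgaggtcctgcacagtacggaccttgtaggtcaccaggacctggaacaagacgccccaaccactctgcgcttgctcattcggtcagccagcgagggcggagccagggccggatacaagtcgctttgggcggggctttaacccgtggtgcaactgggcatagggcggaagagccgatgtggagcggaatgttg

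TTTGAA or TTCGAA was held by 29 members, of which Bub1b rose and Kif23 fell in MN1 relative to Gr1Mac, with a median difference of 0.15 over the 29. Neither was held by 9 members, of which 3 rose (Mad2l1, Cenph and Cenpk), with a median of 0.52. Of all genes, 17.3% rose and 12% fell in this comparison, with a median of -0.06. The sets were not tested against each other. The medians for MN1VP16 relative to MN1 were -0.15 and -0.29 for these sets. The windows of Cenph and Cenpk held CCAAT, whereas that of Mad2l1 held none of the motifs. In Kif23 the TTTGAA begins 3 bases into the transcript, and the CCAAT on the other strand begins 7 bases before it. In Cdk1, a TTTGAA begins 15 bases upstream and the nearest CCAAT 48 bases upstream. No window was matched for Aurkb, Ccna2, Cdc25c, Incenp, Kif20a, Spc24 or Tpx2.

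Among the genes of the spindle checkpoint and of the anaphase trigger, 2 of 7 rose in MN1 relative to Gr1Mac and 0 fell. The 2 were 28.6%, against 17.3% of all genes called higher. Mad2l1 encodes Mad2, the checkpoint protein that binds and inhibits Cdc20. It read 10.46 and 10.35 in MN1VP16, 11.92 and 11.45 in MN1, and 10.04 and 10.01 in Gr1Mac. Both MN1 arrays were above all others, and both MN1VP16 arrays were above both Gr1Mac arrays. Mad2l1 rose by 1.66 ± 0.20 (SE) in MN1 relative to Gr1Mac, a 3.16-fold difference (limma adjusted p = 0.00302, n = 2 arrays each). In MN1VP16 it fell by 1.28 ± 0.20 relative to MN1, a 2.43-fold difference (limma adjusted p = 0.0340). Against Gr1Mac the MN1VP16 difference was 0.38, with a 95% interval of -0.11 to 0.87 and a limma adjusted p of 0.327. The rise in MN1 relative to Gr1Mac was still called without any 1 of the 6 arrays. The call in MN1VP16 relative to MN1 was lost without any 1 of them, with limma adjusted p between 0.0599 and 0.133, while the difference stayed between -1.52 and -1.05. The call was also lost with the sex pattern as a block, at -1.26 and a limma adjusted p of 0.301, a fit in which 0 of all genes were called in that comparison. In that fit the sex term came from the 2 Gr1Mac arrays alone. With a split of the arrays by control features, given below, as a block, Mad2l1 was not called in MN1 relative to Gr1Mac. Its difference there was 1.55 (limma adjusted p = 0.0687).

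Bub1b encodes BubR1, a checkpoint kinase-like protein that works with Mad2 in the complex that inhibits Cdc20. It read 10.60 and 10.72 in MN1VP16, 11.14 and 10.89 in MN1, and 10.44 and 9.64 in Gr1Mac, with no overlap between any 2 groups. Bub1b rose by 0.98 ± 0.28 (SE) in MN1 relative to Gr1Mac, 1.97-fold (limma adjusted p = 0.0463). The MN1VP16 difference from Gr1Mac was 0.62, with a 95% interval of -0.07 to 1.32. Without Gr1Mac array 2, the lowest reading, the MN1 difference was 0.58 (limma adjusted p = 0.0952), and the call was lost without any 1 array other than Gr1Mac array 1. A further probe set of Bub1b gave 0.74 and was not called.

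The other 5 genes of this role were not called. Bub1, the kinase that recruits checkpoint proteins to kinetochores, read 8.47 and 9.55 in MN1VP16, 9.11 and 9.21 in MN1, and 9.17 and 9.03 in Gr1Mac. The MN1VP16 arrays of Bub1 stood on either side of the other groups. Cdc20, the activator of the anaphase-promoting complex, differed by 0.56 in MN1 from Gr1Mac (95% interval 0.09 to 1.03, limma adjusted p = 0.0793) and by 0.18 in MN1VP16. Ube2c, a ubiquitin-conjugating enzyme of the same complex, differed by 0.07 in MN1 and by -0.39 in MN1VP16, and the 95% interval of the first ran from -0.94 to 1.08. Bub3, the binding partner of Bub1, differed by 0.04 in MN1 and 0.11 in MN1VP16. Ttk, the kinase Mps1, differed by 0.02 in MN1 and by -0.21 in MN1VP16.

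**Figure D3:**
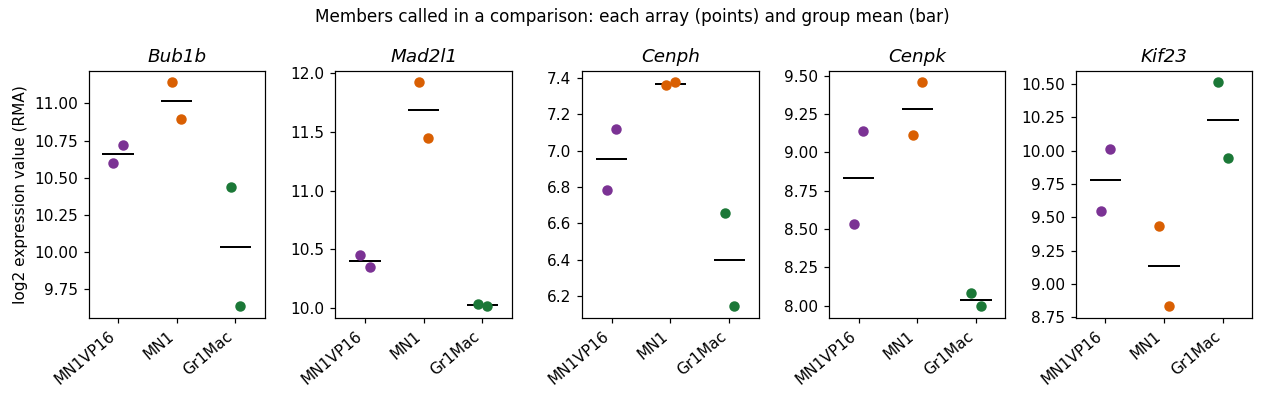
Log2 expression values of the 5 mitosis genes called in a comparison, on each of the 2 arrays of MN1VP16, MN1 and Gr1Mac (points) with group means (bars); each panel has its own vertical scale. Mad2l1 stood at 11.92 and 11.45 in MN1 against at most 10.46 elsewhere, and Kif23 was lowest in MN1.

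Among the kinetochore and centromere genes, 2 of 9 rose in MN1 relative to Gr1Mac and 0 fell. The 2 were 22.2%, near the 17.3% of all genes called higher. Cenpk and Cenph encode subunits of the inner kinetochore network that stays on centromeres through the cell cycle. Cenpk read 8.53 and 9.14 in MN1VP16, 9.11 and 9.46 in MN1, and 8.08 and 7.99 in Gr1Mac. Both transduced groups lay above Gr1Mac and overlapped each other. Cenpk rose by 1.25 ± 0.25 (SE) in MN1 relative to Gr1Mac, 2.37-fold (limma adjusted p = 0.0135). In MN1VP16 the difference was 0.80 (95% interval 0.19 to 1.40), with an unadjusted p of 0.0184 and a limma adjusted p of 0.122. Both other probe sets of Cenpk were dim and gave 0.03 and -0.16. The MN1 call was lost without MN1 array 2, Gr1Mac array 1 or Gr1Mac array 2, with differences of 1.07, 1.29 and 1.20.

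Cenph read 6.79 and 7.12 in MN1VP16, 7.36 and 7.38 in MN1, and 6.65 and 6.14 in Gr1Mac, without overlap between groups. It rose by 0.97 ± 0.23 (SE) in MN1 relative to Gr1Mac, 1.96-fold (limma adjusted p = 0.0233), and differed by 0.56 in MN1VP16 (limma adjusted p = 0.211). The call in MN1 was lost without either MN1 array or without Gr1Mac array 2, when the difference was 0.71. Cenpa, the histone H3 variant that marks centromeres, read 10.76 and 10.87 in MN1VP16, 11.14 and 11.31 in MN1, and 10.78 and 10.23 in Gr1Mac. MN1 lay above both other groups, by 0.72 over Gr1Mac (95% interval 0.17 to 1.26, limma adjusted p = 0.0583), and MN1VP16 overlapped Gr1Mac. Other probe sets of Cenpa, at lower levels, gave -0.33 and -0.01 in MN1 relative to Gr1Mac and were not called.

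The outer kinetochore showed no call. The Ndc80 complex, which grips the microtubule, has Ndc80, Nuf2, Spc24 and Spc25 as its subunits. In MN1 relative to Gr1Mac, Ndc80 differed by -0.37, Nuf2 by -0.14, Spc25 by -0.27 and Spc24 by 0.55. In MN1VP16 the same differences from Gr1Mac were -0.13, -0.21, -0.38 and 0.32. For Spc24 in MN1 the 95% interval ran from -0.17 to 1.28. Cenpe, a kinetochore kinesin, read 7.99 and 8.90 in MN1VP16, 8.75 and 8.78 in MN1, and 9.13 and 8.35 in Gr1Mac, so the groups overlapped. Cenpf, a large kinetochore protein of G2 and mitosis, differed by 0.15 in MN1 and 0.30 in MN1VP16.

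Among genes for entry into mitosis, 0 of 9 were called in any comparison. By mean, all 9 were higher in MN1 than in Gr1Mac, with a median of 0.44, against 44.5% of all genes. All 9 were lower in MN1VP16 than in MN1, with a median of -0.29, where 53.4% of all genes were higher. The mean over the 9 was 9.30 and 9.70 in MN1VP16, 9.86 and 9.83 in MN1, and 9.65 and 9.11 in Gr1Mac. As the members moved together from array to array, the 9 are not separate observations. At an unadjusted p under 0.05, 3 passed in MN1 relative to Gr1Mac, 0 in MN1VP16 relative to Gr1Mac and 1 in MN1VP16 relative to MN1. These were 33.3%, 0% and 11.1% of the 9, each below the share of all genes (39.8%, 23.7% and 22.5%). Cdk1, the kinase that drives entry, read 10.01 and 10.75 in MN1VP16, 10.70 and 10.59 in MN1, and 10.58 and 9.91 in Gr1Mac. The MN1 arrays lay just above the higher Gr1Mac array, and MN1VP16 spanned nearly the whole range. Ccna2, cyclin A, read 10.30 and 10.40 in MN1VP16, 10.58 and 10.67 in MN1, and 10.41 and 9.93 in Gr1Mac. MN1 was above both other groups, by 0.45 over Gr1Mac (95% interval -0.04 to 0.95).

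Cdc25c, a phosphatase that activates Cdk1, Nek2, a kinase that separates centrosomes, and Ect2, described below, lay close to the threshold, as did Cenpa, and are given by array for that after their values were seen. Cdc25c read 7.52 and 7.40 in MN1VP16, 7.98 and 8.14 in MN1, and 7.50 and 6.55 in Gr1Mac, a difference of 1.04 between MN1 and Gr1Mac (limma adjusted p = 0.0548). Nek2 read 8.69 and 9.04 in MN1VP16, 9.18 and 9.13 in MN1, and 8.64 and 7.91 in Gr1Mac, a difference of 0.88 (limma adjusted p = 0.0583). For both genes Gr1Mac array 2 was the lowest reading. Another probe set of Nek2 gave 1.35 in MN1 relative to Gr1Mac and was called when each probe set was tested on its own. Another of Cdc25c gave 0.13 and was not called.

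The remaining 5 entry genes were not called either. Ccnb2, a B-type cyclin, differed by 0.46 in MN1 and by 0.04 in MN1VP16 from Gr1Mac. Cdc25b, also a Cdk1-activating phosphatase, differed by 0.44 in MN1 and by -0.06 in MN1VP16, and by -0.49 between MN1VP16 and MN1 (95% interval -0.90 to -0.09, limma adjusted p = 0.152). Aurka, the centrosomal Aurora kinase, differed by 0.32 in MN1 and 0.02 in MN1VP16. Plk1, a kinase of spindle assembly and cytokinesis, and Plk4, the kinase of centriole duplication, differed by 0.04 and 0.15 in MN1 and by -0.25 and 0.01 in MN1VP16.

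Among the chromosomal passenger complex, 0 of 4 genes were called, and 0 of 4 passed an unadjusted p of 0.05 in any comparison. Aurkb, its kinase, read 9.61 and 10.34 in MN1VP16, 9.96 and 9.56 in MN1, and 9.69 and 9.46 in Gr1Mac. Birc5, survivin, read 9.33 and 9.69 in MN1VP16, 9.55 and 9.59 in MN1, and 10.11 and 9.12 in Gr1Mac. For both, all 3 groups overlapped. The scaffold Incenp and the borealin gene Cdca8 differed from Gr1Mac by -0.07 and 0.16 in MN1 and by -0.08 and 0.06 in MN1VP16. The intervals of all 4 genes lay within 2-fold in MN1 relative to Gr1Mac and in MN1VP16 relative to MN1.

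Among spindle motors and assembly factors, 0 of 8 genes were called, and 0 of 8 passed an unadjusted p of 0.05 in any comparison. Kif2c, a kinesin that shortens microtubules, read 8.92 and 9.56 in MN1VP16, 9.39 and 9.35 in MN1, and 9.29 and 8.93 in Gr1Mac. Kif4, a chromosome-bound kinesin, read 8.33 and 8.76 in MN1VP16, 8.63 and 8.63 in MN1, and 8.86 and 8.40 in Gr1Mac. For Kif2c both MN1 arrays lay just above both Gr1Mac arrays and inside the range of MN1VP16. For Kif4 the MN1 arrays lay inside the range of both other groups, and its MN1 difference of 0.00 had an interval of -0.57 to 0.57. Kif18a, which aligns chromosomes, and Kif20b, which acts in cytokinesis, differed by 0.52 and 0.52 in MN1 and by 0.26 and 0.18 in MN1VP16. Kif11, the kinesin that pushes spindle poles apart, differed by 0.33 in MN1 and 0.02 in MN1VP16. Kif22, a chromosome-bound kinesin, and Tpx2, an activator of Aurora A, differed by 0.12 and 0.02 in MN1 and by 0.00 and 0.10 in MN1VP16. Kif15, a spindle kinesin, was read only between 4.85 and 5.49, under 5.84, a level that Xist reached on an array high in Y-linked genes, so its differences of -0.23 and -0.11 say little.

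Among midzone and cytokinesis genes, 1 of 6 fell and 0 rose in MN1 relative to Gr1Mac. The 1 fall was 16.7%, near the 12% of all genes called lower. Kif23 encodes MKLP1, the kinesin of the centralspindlin complex. It read 9.55 and 10.01 in MN1VP16, 9.44 and 8.83 in MN1, and 10.51 and 9.95 in Gr1Mac. MN1 lay below both other groups, and MN1VP16 overlapped Gr1Mac. Kif23 fell by 1.10 ± 0.31 (SE) in MN1 relative to Gr1Mac, a 2.14-fold difference (limma adjusted p = 0.0429), and its difference was 0.65 between MN1VP16 and MN1 (limma adjusted p = 0.290). The fall was not called without MN1 array 1 or 2 or Gr1Mac array 1 or 2, with differences between -1.40 and -0.79. Its other probe sets, both dim, gave -0.63 and -0.62 and were not called. Racgap1, the partner of Kif23 in centralspindlin, differed by -0.55 in MN1 (95% interval -1.21 to 0.12, limma adjusted p = 0.195) and by -0.15 in MN1VP16, and both MN1 arrays lay below both Gr1Mac arrays.

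Ect2, the exchange factor that activates RhoA at the division site, was not called. It read 9.08 and 9.78 in MN1VP16, 9.75 and 9.97 in MN1, and 8.43 and 9.13 in Gr1Mac, a difference of 1.08 between MN1 and Gr1Mac (limma adjusted p = 0.0539). Leaving out either MN1VP16 array, which changes only the estimate of the spread, brought Ect2 under the threshold. Without any 1 of the other 4 arrays it was not called (limma adjusted p between 0.0510 and 0.231), and its difference was 0.73 without Gr1Mac array 1. Kif20a, a midzone kinesin, read 8.36 and 8.59 in MN1VP16, 8.60 and 8.62 in MN1, and 8.88 and 7.85 in Gr1Mac. Its MN1 arrays lay between the Gr1Mac arrays. Prc1, which bundles midzone microtubules, and Anln, the scaffold anillin, differed by -0.02 and 0.10 in MN1 and by 0.00 and -0.04 in MN1VP16.

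Top2a and Mki67, markers that are used to count dividing cells, were not called in any comparison. Top2a, the topoisomerase that untangles chromosomes, read 11.50 and 12.23 in MN1VP16, 12.11 and 11.84 in MN1, and 11.89 and 11.77 in Gr1Mac. Mki67, the Ki-67 protein that coats mitotic chromosomes, read 11.99 and 12.32 in MN1VP16, 12.55 and 12.42 in MN1, and 12.37 and 12.24 in Gr1Mac. The groups overlapped for Top2a, and for Mki67 both MN1 arrays lay just above all others. The differences of MN1 from Gr1Mac were 0.15 and 0.18, and the upper ends of their intervals were 0.80 and 0.62. For MN1VP16 relative to Gr1Mac they were 0.03 and -0.15, with intervals of -0.62 to 0.69 and -0.59 to 0.29.

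The other genes of the division cycle were set beside the members as counts. Of the 96 measured other mitosis genes, 21 rose and 2 fell in MN1 relative to Gr1Mac, or 21.9% and 2.08%, against 17.3% and 12% of all genes, with a median of 0.40. At an unadjusted p under 0.05, 42.7% passed, against 39.8% of all genes. The 2 with the largest rises were Kif3a, a kinesin of transport and cilia that was at least 3.71-fold higher in MN1 (limma adjusted p = 0.00181), and Zwint, a kinetochore protein (2.07). The falls were Ndel1, a dynein regulator (-1.43), and Lin54, the DNA-binding subunit of the DREAM complex (-1.09). In MN1VP16 against Gr1Mac, 2 rose, Zwint (1.20) and the Cdk1-inhibiting kinase Wee1 (0.90), and Ndel1 fell (-0.86). The rises were 2.08% and the fall 1.04%, against 3.66% and 2.11% of all genes. Between MN1VP16 and MN1, 1 fell, Kif3a, at least 3.52-fold lower in MN1VP16, and 0 rose. The median was -0.23 there. The 21 calls in MN1 became fewer without either MN1 array or without Gr1Mac array 2, as did the calls higher over all genes.

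Of the 59 measured S phase and replication genes, 35 rose and 1 fell in MN1 relative to Gr1Mac. These were 59.3% and 1.69%, against 17.3% and 12% of all genes. The median difference was 1.15, against 0.16 for the mitosis group. Chaf1b, a subunit of chromatin assembly factor 1, rose by 2.14, and Pold2, a subunit of DNA polymerase delta, by 2.00, and the E2F factor E2f2 fell by 1.93. In MN1VP16 against Gr1Mac, 4 rose and 1 fell, again E2f2, by 1.43, with a median of 0.74 against 0.03. The calls were 6.78% and 1.69%, against 3.66% and 2.11% of all genes. The largest rises there were Mcm2 (1.38) and Mcm3 (1.37), subunits of the replicative helicase. Between MN1VP16 and MN1, 0 were called in either direction by limma, 11 passed an unadjusted p of 0.05, and the median was -0.31. The 11 were 18.6%, against 22.5% of all genes. The 35 calls in MN1 stayed 35 without either MN1VP16 array, where 16.7% of all genes were called higher. They became fewer without any 1 MN1 or Gr1Mac array, as did the calls higher over all genes. The 4 calls in MN1VP16 became 0 without either MN1 array, where 0.995% of all genes were called higher. They were also lost without MN1VP16 array 2 or Gr1Mac array 2, where calls higher over all genes became fewer too. Without Gr1Mac array 1 both became more. The lists were not tested against each other. Of the 11 G1 cyclins and kinases, 4 rose in MN1, among them Cdk4 (3.30) and Cdk6 (2.57), the kinases that act before S phase, and 1 fell, Ccnd3, cyclin D3 (-1.47). These were 36.4% and 9.09%, against 17.3% and 12% of all genes. In MN1VP16 against Gr1Mac, Cdk6 (2.49) and Cdk4 (2.26) rose, or 18.2% against 3.66% of all genes, and 0 fell. Of the 11, 0 were called between MN1VP16 and MN1. There 2 passed an unadjusted p of 0.05, or 18.2% against 22.5% of all genes.

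**Figure D4:**
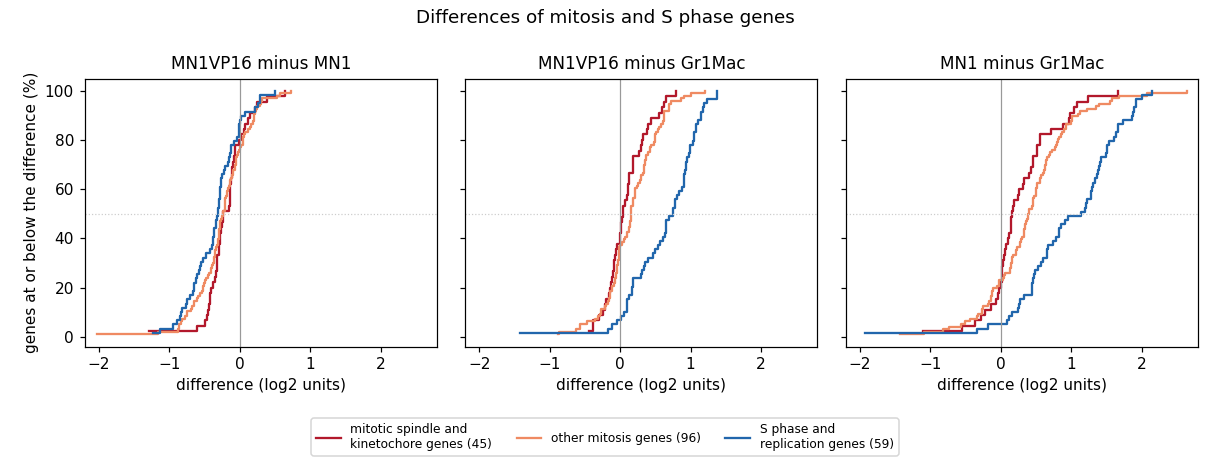
Cumulative share of genes (vertical axis, percent) at or below a difference (horizontal axis, log2 units) for MN1VP16 minus MN1 (left), MN1VP16 minus Gr1Mac (middle) and MN1 minus Gr1Mac (right). Red is the mitosis group (45 genes), orange the other mitosis genes (96) and blue the S phase and replication genes (59). In the right panel the S phase curve crosses the middle of the axis at 1.15 and the mitosis group's at 0.16.

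The calls and median in MN1 relative to Gr1Mac depended on single arrays and on splits of the arrays that the labels do not give. Without Gr1Mac array 1, which was high for these genes, the median of the members was 0.40. Without Gr1Mac array 2, which leaves only arrays high in Xist in this comparison, it was 0.07. It was 0.15 without MN1 array 1 and 0.24 without MN1 array 2. The members called also changed, but these fits leave 1 array in a group. For MN1VP16 relative to Gr1Mac, 0 members were called without any 1 of the 6 arrays. Its median was 0.32 without MN1VP16 array 1 and -0.24 without MN1VP16 array 2. With only the Gr1Mac array that shared the sex pattern of MN1VP16, 0 members were called and the median was 0.18, where 5.6% of all genes were called higher and 1.24% lower. Control features of the arrays were bright on both MN1 arrays and MN1VP16 array 1 (10.93 to 11.29) and lower on the others (9.08 to 9.69). With this split as a block, Cenpk alone was called higher in MN1 relative to Gr1Mac and the median was 0.79. Of all genes, 5.02% were called higher in that fit.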

How the data were processed

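Gene expression was measured on 6 Affymetrix Mouse430_2 arrays, 2 for each of 3 groups. The deposited values were on a log2 scale, 1 per probe set and array. Per the submitters' processing notes the authors used RMA, whose version the sources used here do not give. RMA corrects background, quantile-normalises the arrays and summarises probes, which compresses differences of dim genes and hides a change in the amount of RNA per cell. Array medians lay between 5.36 and 5.43. The number of arrays limits the precision. Of 45101 lines, 64 were control features, and GEO's platform annotation named 1 gene for 34945 probe sets, several for 932 and none for 9160. Only single-gene probe sets were used, and the probe set with the highest mean was kept for each of 18193 genes.

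The fit was made with limma 3.58.1 (R 4.3.3) on group means over all 6 arrays (3 residual and 3.03 prior degrees of freedom), and p-values were adjusted over all genes by Benjamini-Hochberg. With 2 arrays a group, exact permutation tests cannot fall below 0.05. Where the dimmer group lay at or under 5.84, the Xist reading on a Y-high array, a lower bound of the fold is given, for which each array of the dimmer group was raised to that level unless its own reading was higher. The limma fit, and not this bound, was tested on simulated data. The simulated noise was independent between genes, whereas the members moved together between arrays. Alternatives were a replicate block, other choices of probe set, filters and priors, median centring, a fold minimum, blocks for the sex pattern and the control features, and leaving out each array; fitting every probe set on its own was added after seeing the data. Every measured member is named, and the value on every array is given for called members and the first 2 of each role; from other lists, the 2 called genes with the largest rise and fall are named. The members and lists were chosen with earlier results of these data known. Promoter sequences are RefSeq's (GRCm38.p6).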

Additional observations from a re-analysis of the deposited data

How the results depend on the processing

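In MN1 relative to Gr1Mac the members called higher, 4 as reported, numbered 7 without the dimmest 40% of genes, 2 with a minimum of 2-fold, 1 with the sex pattern as a block, 1 with the control-feature split as a block, and 1 to 8 on leaving out an array. The members called lower, 1 as reported, numbered 0 with the mean of all probe sets, with median centring and with either of those blocks, and 0 to 1 on leaving out an array. With a replicate block, 5 members were called higher and 0 lower in this comparison. The replicate numbers are shared only as numbers: deviations of same-numbered arrays correlated at -0.05, 0.08 and -0.05 in the 3 comparisons, so no pairing was assumed. In MN1VP16 relative to MN1 the members called lower, 1 as reported, numbered 0 with only the 4 arrays of both groups, against 1.92% of all genes. They numbered 0 with the sex pattern and with the control-feature split as a block, against 0% and 0.715%. The call was also lost on leaving out any array. In MN1VP16 relative to Gr1Mac, 0 members were called under all of these settings. The median of the members in MN1VP16 relative to MN1, -0.23 as reported, was 0.20 with the sex pattern as a block and lay between -0.468 and 0.0881 on leaving out an array. In MN1 relative to Gr1Mac, 0.16 as reported, it was 0.79 with the control-feature split and 0.0726 to 0.404 on leaving out an array. In MN1VP16 relative to Gr1Mac, 0.03 as reported, it was 0.32 with that split and -0.242 to 0.324 on leaving out an array. The control-feature block leaves MN1 without an array outside its bright class, so MN1 relative to Gr1Mac runs through MN1VP16. With this block, MN1VP16 relative to Gr1Mac is the fit without MN1VP16 array 1, and MN1VP16 relative to MN1 the fit without MN1VP16 array 2. With the sex block, MN1 relative to Gr1Mac is the fit without Gr1Mac array 2, and MN1VP16 relative to Gr1Mac the fit without Gr1Mac array 1. MN1VP16 relative to MN1 then runs through Gr1Mac. These settings are therefore not separate checks. The causes of the other shifts were not tested. Dim readings, such as those of Kif15, have no stated background. Over all genes, calls higher and lower ranged over the settings from 914 to 3147 and 572 to 2315 in MN1 relative to Gr1Mac (3147 and 2187 as reported), from 22 to 1018 and 27 to 414 in MN1VP16 relative to Gr1Mac (666 and 384), and from 0 to 289 and 0 to 532 in MN1VP16 relative to MN1 (209 and 492).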
